A study of Mus musculus with 16 samples.

Results

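Csf1r, the receptor of the colony stimulating factor pathway, its ligands Csf1 and Il34, and the myeloid transcription factors Spi1, Irf8 and Runx1 were examined in mouse spinal cord after chronic spinal cord injury (SCI). The 6 genes were chosen by symbol, out of 24411 gene symbols in the count and TPM tables (a transcript level normalized for gene length and library size), and all 6 passed the filter on low expression, as did 16091 genes in all. RNA was sequenced from 16 female C57BL/6J mice, of which 7 were SCI + Atorvastatin, 7 SCI + Vehicle and 2 Uninjured Control, with 1 library per mouse from a 5 mm piece of thoracic cord around the lesion or the matching level. SCI mice were operated at 12 wk of age by lateral compression to a 0.25 mm gap. From 2 wk later they were injected daily for 4 wk with atorvastatin (10 mg/kg), a statin that blocks the rate-limiting enzyme of cholesterol synthesis, or with its vehicle of DMSO, PEG, Tween and saline alone, and cords were taken at 6 wk after injury. The Uninjured Control mice had neither surgery nor injections, and their age is 12 wk in the labels and older in the methods of the study, whereas the cords of SCI mice were taken 6 wk after surgery at 12 wk. Injury, surgery, injections and age at collection thus cannot be told apart in a comparison with them. No group carries a transgene or a deletion. The tissue is a whole segment, in which more cells of a type and more RNA per cell cannot be told apart.

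Csf1r is a receptor tyrosine kinase on microglia, macrophages and monocytes, and these cells depend on it for survival and division. Its ligands are products of separate genes that bind the same receptor: in the nervous system Csf1 is made by glia and by injured neurons, and Il34 by neurons. The transcription factor PU.1, encoded by Spi1, is required for the myeloid lineage and drives Csf1r expression, while Irf8 is needed for microglial development and reactivity, and Runx1 acts in blood stem cells and early myeloid cells.

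Libraries held 14823292 to 25579826 counts on genes. Counts were found for 16399 to 19338 genes in the SCI mice and for 12732 and 12356 genes in Uninjured Control replicates 1 and 2. Of 3245 genes that averaged 200 to 500 counts over SCI mice, 13.9% and 17.6% were at 0 counts in these replicates, against at most 0.247% in any SCI mouse. Counts and TPM also disagree there: 401 and 493 genes had at least 50 counts and a TPM of 0, against 10 to 92 in the SCI libraries. The summed TPM of 6 liver markers was 1139.9 and 6220.62 in the Uninjured Control mice and 13.39 or less in every SCI mouse. Among the SCI mice, SCI + Vehicle replicate 7 stood apart, with the lowest summed TPM of its group for fibroblast markers (76.72, against 103.35 to 713.59 in the other 6 mice) and for monocyte or border macrophage markers (29.68, against 56.84 to 164.98). The part of these features in the results that follow was not tested, and results that rest on 1 of these libraries are given with and without it.

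The receptor was the most abundant of the 6 transcripts. In TPM, Csf1r was above each of the other 5 genes in 14 of 14 SCI mice, and Csf1 was above Spi1 in 13 and above Il34, Irf8 and Runx1 in 14. Spi1 and Irf8 did not separate, with Irf8 higher in 8 mice and Spi1 in 6. Il34 was higher than Runx1 in 10 mice and lower in 4, so that this pair of neighbours in the order of levels did not separate either. Across conditions the median TPM of Csf1r, Csf1, Il34 and Runx1 followed the order Uninjured Control, SCI + Vehicle, SCI + Atorvastatin, with overlap between the SCI groups for every gene.

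Csf1r (chr18:61100598-61132149, plus strand, GRCm38) was found at 23.1 and 29.2 TPM in Uninjured Control replicates 1 and 2. With vehicle its lowest, median and highest TPM were 142.9, 187.2 and 219.3, and with atorvastatin 179.5, 203.1 and 228.2. Every SCI mouse was far above both controls, and the lowest was SCI + Vehicle replicate 7. In counts, Csf1r had 995 and 956 in the controls and 3891 to 8246 in the SCI mice, so that this gene was well sampled in all 16 libraries. Csf1r rose in SCI + Vehicle vs. Uninjured Control with a log2 fold change of 2.59 ± 0.16 (SE, n = 7 and 2, edgeR adjusted p = 1.64e-05). In SCI + Atorvastatin vs. Uninjured Control the log2 fold change was 2.75 ± 0.13 (n = 7 and 2, edgeR adjusted p = 2.52e-06). These comparisons share their controls.

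**Figure D1:**
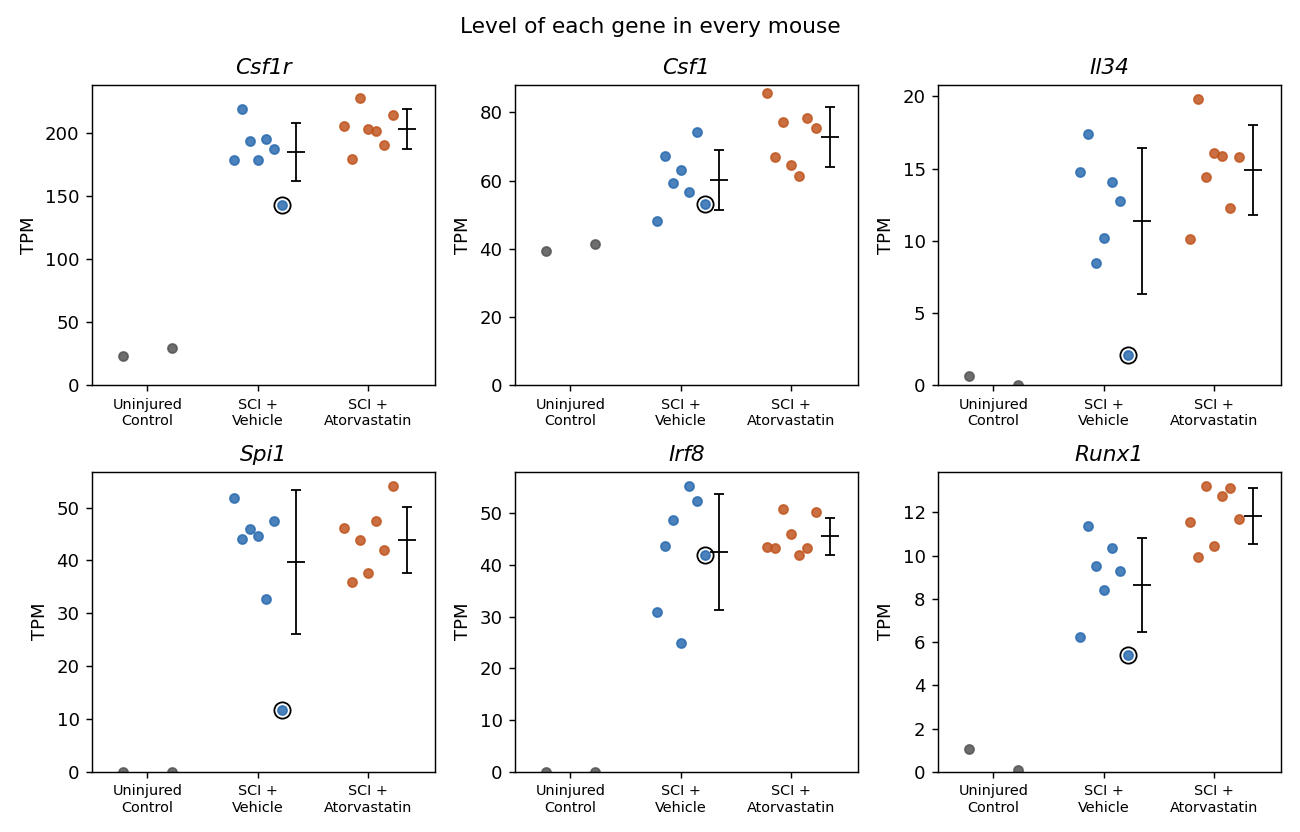
TPM of the 6 genes in every mouse, 1 panel per gene with its own axis from 0. Points are mice, bars beside the SCI groups are the mean ± SD (n = 7), and the ringed point is SCI + Vehicle replicate 7. Csf1r lies at 23.1 and 29.2 TPM in the Uninjured Control mice and at 142.9 or more in the SCI mice, and Spi1 is at 0 in both controls.

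All 6 genes were called higher in both comparisons with the Uninjured Control group, that is with an edgeR adjusted p below 0.05 and a log2 fold change beyond 0.32 in size. Of all genes tested, 19.8% were called higher in SCI + Vehicle vs. Uninjured Control (29.4% in either direction) and 24.9% in SCI + Atorvastatin vs. Uninjured Control (38.9% in either direction). For all 6 genes the lowest SCI mouse was above both controls in normalized counts, which held for 22.8% of all genes. Il34, Spi1, Irf8 and Runx1 passed the filter on low expression only through the SCI groups, with a mean control TPM of 0.3, 0, 0 and 0.575. A rise of these genes was thus favoured by the filter, and their calls are no independent support. Csf1r and Csf1 averaged above 1 TPM in every group. Csf1r was the only one of the 6 that passed in every alternative analysis run on these comparisons: with a quality weight per group in voom its adjusted p was 0.00858 for SCI + Vehicle and 0.00518 for SCI + Atorvastatin, while the other 5 genes did not pass there (limma adjusted p from 0.587 to 0.652 in SCI + Vehicle). That analysis called 0.820% and 0.901% of all genes. Without SCI + Vehicle replicate 7, 5 of the 6 genes passed in the vehicle comparison.

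Of the ligands, Csf1 (chr3:107741048-107760469, minus strand) was abundant in uninjured cord and rose modestly, and Il34 (chr8:110741829-110805924, minus strand) was close to absent there. Csf1 was found at 39.4 and 41.4 TPM in the controls. With vehicle its lowest, median and highest TPM were 48.1, 59.4 and 74.3, and with atorvastatin 61.4, 75.6 and 85.8. The controls lay below all SCI mice, but the margin was small: on normalized counts the lowest SCI + Vehicle mouse was 1.07 times Uninjured Control replicate 2. The log2 fold change of Csf1 was 0.54 ± 0.16 in SCI + Vehicle vs. Uninjured Control (n = 7 and 2, edgeR adjusted p = 0.0316) and 0.79 ± 0.13 in SCI + Atorvastatin vs. Uninjured Control (adjusted p = 0.000947). The call in SCI + Vehicle was lost without vehicle replicate 2, 3, 4 or 6 (adjusted p from 0.0517 to 0.0576) and without Uninjured Control replicate 1 (log2 fold change 0.39, adjusted p = 0.119).

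Il34 had 10 counts (0.60 TPM) in one of the uninjured cords, replicate 1, and 0 in the other, replicate 2. A count of 0 in replicate 2 allows up to 3 counts, or 0.134 CPM (counts scaled to the library total), by counting error alone. Il34 averaged 298 counts over SCI mice, in the range of 200 to 500 counts. In that range 13.9% and 17.6% of genes were at 0 in replicates 1 and 2, and whether this touches Il34 was not tested. With vehicle the lowest, median and highest TPM of Il34 were 2.05, 12.7 and 17.4, and with atorvastatin 10.1, 15.8 and 19.8. The lowest value was again that of SCI + Vehicle replicate 7, with 64 counts where the other SCI mice had 194 to 418. Il34 rose by a log2 fold change of 5.55 ± 1.24 in SCI + Vehicle (n = 7 and 2, edgeR adjusted p = 0.00728) and 5.85 ± 1.00 in SCI + Atorvastatin (adjusted p = 0.00122). Without vehicle replicate 7 the first of these was 5.72 (adjusted p = 0.00532). The sizes depended on the control with 0 counts: without it they were 4.55 and 4.83, and with it as the only control the fitted values were 11.05 and 11.37, which depend on the prior count and are no measure of size.

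The ratio of the ligands in TPM differed between SCI and Uninjured Control mice, through the low Il34 of the controls. Whether the genes at 0 in these control libraries, as given above, touch this ratio was not tested. Csf1 TPM divided by Il34 TPM was 65.6 in Uninjured Control replicate 1 and has no value in replicate 2, where Il34 is listed at 0. With atorvastatin the ratio ran from 3.37 to 8.46, and with vehicle from 3.26 to 7.02 in 6 mice, with 25.9 in replicate 7. On the log2 scale with 0.1 TPM added to both genes, the mean ratio was 2.45 ± 0.75 in SCI mice (SD, n = 14) and 7.26 ± 2.04 in Uninjured Control mice (n = 2), a difference of -4.81, with a two-sided exact permutation p of 0.00833, the smallest that 120 assignments allow. The difference depends on the added value, since it was -2.68 with 1 TPM added. Between the treatments the log2 ratio differed by -0.30 (SCI + Atorvastatin minus SCI + Vehicle, exact permutation p = 0.555, n = 7 and 7), and by 0.036 without vehicle replicate 7 (exact permutation p = 0.887).

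Spi1 (chr2:91082390-91115756, plus strand) was not detected in uninjured cord. It had 0 counts in both Uninjured Control mice, which allows up to 0.148 and 0.134 CPM. With vehicle its lowest, median and highest TPM were 11.8, 44.7 and 51.8, and with atorvastatin 35.95, 43.8 and 54.1. SCI + Vehicle replicate 7 was the lowest here too, with 141 counts against 313 to 647 in the other SCI mice. Against a floor of 3 counts in each control, the mean normalized CPM of Spi1 was at least 130-fold higher in SCI + Vehicle (edgeR adjusted p = 0.000133) and at least 152-fold higher in SCI + Atorvastatin (adjusted p = 4.44e-06). Other abundant genes are at 0 in these controls as well, as given above for genes in the range of 200 to 500 counts, and whether this touches the 0 of Spi1 was not tested.

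Irf8 (chr8:120736358-120756694, plus strand) had 0 counts in one uninjured cord (replicate 1) and 227 in the other (replicate 2), whereas the TPM table lists it at 0 in both. With vehicle its lowest, median and highest TPM were 24.8, 43.5 and 55.2, and with atorvastatin 41.9, 43.4 and 50.7. The medians of the SCI groups thus nearly coincided, and the SD was 11.1 TPM in the vehicle group and 3.60 TPM in the atorvastatin group. Irf8 rose in SCI + Vehicle by a log2 fold change of 3.31 ± 1.07 (n = 7 and 2, edgeR adjusted p = 0.0402) and in SCI + Atorvastatin by 3.43 ± 1.05 (adjusted p = 0.0254). The call in SCI + Vehicle did not withstand the loss of any vehicle mouse (adjusted p from 0.0565 to 0.0729 over the 7 fits), and the log2 fold changes were 2.32 and 2.44 in the SCI + Vehicle and SCI + Atorvastatin comparisons without Uninjured Control replicate 1. With replicate 1, at 0 counts, as the only control they were 13.14 and 13.30, which depend on the prior count and are no measure of size.

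Runx1 (chr16:92601466-92826149, minus strand) was the least abundant of the transcription factors, and its control values differed between the replicates. It had 70 counts and 1.06 TPM in uninjured replicate 1 but 316 counts and 0.09 TPM in replicate 2, a ratio of 3511 counts per TPM where the other 15 libraries had 47.8 to 83.9. With vehicle its lowest, median and highest TPM were 5.38, 9.29 and 11.4, and with atorvastatin 9.95, 11.7 and 13.2. In counts, the controls are below all SCI mice, which ran from 392 to 1002. Runx1 rose in SCI + Vehicle by a log2 fold change of 1.47 ± 0.47 (n = 7 and 2, edgeR adjusted p = 0.0382) and in SCI + Atorvastatin by 1.93 ± 0.45 (adjusted p = 0.00651). The size in SCI + Vehicle depended on the control: it was 0.79 without replicate 1 (adjusted p = 0.0506) and 2.82 without replicate 2 (adjusted p = 7.92e-05), and it was 2.65 on log2(TPM + 1) in limma. The call in SCI + Vehicle was also lost without any 1 of vehicle replicates 1 to 6 (adjusted p from 0.0533 to 0.0684). An antisense gene lies within Runx1, and the strand setting of the counting is not stated in the sources used here. Whether reads of the pair were kept apart was not tested.

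Promoter windows are shown for Runx1 and Csf1, for which the interval between the treatments, given next, lies above 0, from the RefSeq table used (GRCm38.p6), which covers 3 of the 6 genes in 5 windows. The 250 bases before the RefSeq start were searched on both strands for GAGGAA (the core bound by PU.1), TGTGGT (the RUNX core) and an IRF motif (GAAA repeated with 2 bases between). Capitals mark a match. The Runx1 window is chr16:92697330-92697579 and the Csf1 window is chr3:107760470-107760719, both on the minus strand and written 5′ to 3′.
Runx1: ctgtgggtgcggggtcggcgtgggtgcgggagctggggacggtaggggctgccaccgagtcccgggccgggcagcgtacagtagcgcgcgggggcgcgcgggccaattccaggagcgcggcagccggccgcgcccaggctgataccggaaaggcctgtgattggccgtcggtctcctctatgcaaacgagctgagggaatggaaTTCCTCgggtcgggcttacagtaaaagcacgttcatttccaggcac
Csf1: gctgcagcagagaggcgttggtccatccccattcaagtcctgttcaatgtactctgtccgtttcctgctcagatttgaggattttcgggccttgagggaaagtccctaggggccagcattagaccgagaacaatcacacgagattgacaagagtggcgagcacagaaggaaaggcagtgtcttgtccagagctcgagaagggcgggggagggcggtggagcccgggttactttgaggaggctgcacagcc
The Runx1 window, at an internal start of the gene, held 1 match to the PU.1 core on its opposite strand, TTCCTC from base -46 to -41 relative to that start. No match to these 3 motifs was found in the Csf1 window, in the window at the first start of Runx1 or in the windows of Irf8. Of 32851 promoter windows of the same length, 23.3% held GAGGAA, 14% TGTGGT and 2.98% the IRF motif. A match describes the letters and shows no binding, and no match says only that these letters are not in the window.

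Atorvastatin against vehicle was the next comparison, which asks whether the drug altered these genes in injured cord. None of the 6 genes was called between the treatments by the rule used for that comparison (unadjusted p below 0.001, log2 fold change beyond 0.32 in size), which 0.106% of all genes passed in edgeR. All 6 log2 fold changes were above 0, as were 48.7% of those of all genes. Runx1 and Csf1 had an unadjusted p below 0.05, as did 7.03% of all genes, and no gene of the table passed an adjusted p of 0.05 in this comparison.

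Runx1 had the largest log2 fold change of the 6. Its TPM was 11.8 ± 1.29 with atorvastatin and 8.65 ± 2.17 with vehicle (SD, n = 7 each). On normalized counts the vehicle median lay below 7 of 7 atorvastatin mice, and 4 of 7 were above the highest vehicle mouse, SCI + Vehicle replicate 2. The log2 fold change was 0.43 ± 0.13 (95% interval 0.16 to 0.71, edgeR adjusted p = 0.680, n = 7 and 7; two-sided exact permutation p = 0.00291). It was 0.36 without vehicle replicate 7 (exact permutation p = 0.00524) and 0.50 without vehicle replicate 2 (exact permutation p = 0.00117), where edgeR called it, the only call of the 6 genes among the alternatives run.

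For Csf1 the TPM was 72.8 ± 8.77 with atorvastatin and 60.2 ± 8.80 with vehicle, and on normalized counts 6 of 7 atorvastatin mice exceeded the median vehicle mouse. The log2 fold change was 0.23 ± 0.09 (95% interval 0.04 to 0.42, edgeR adjusted p = 0.680, exact permutation p = 0.0198), and 0.19 without vehicle replicate 7 (exact permutation p = 0.0385). Csf1r itself differed less, with 203 ± 15.6 and 185 ± 23.1 TPM and a log2 fold change of 0.14 ± 0.08 (95% interval -0.03 to 0.31, edgeR adjusted p = 0.742, exact permutation p = 0.0804). With all mice the interval of Csf1r reaches a rise by 0.31 and a fall by 0.03 on the log2 scale, and values beyond it are not excluded. On mean log2 CPM the difference of Csf1r was 0.096 without vehicle replicate 7 (exact permutation p = 0.166). It was 0.18 without vehicle replicate 2 (exact permutation p = 0.0239).

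The intervals of Il34, Spi1 and Irf8 between the treatments included 0, and those of Il34 and Spi1 were the widest of the 6. Il34 had a log2 fold change of 0.27 (95% interval -0.29 to 0.82, exact permutation p = 0.270) and Spi1 one of 0.22 (-0.23 to 0.68, exact permutation p = 0.297). Both values rested largely on SCI + Vehicle replicate 7 and were 0.09 and 0.07 without it. Irf8 had a log2 fold change of 0.10 (-0.18 to 0.37, exact permutation p = 0.418), and 2 of 7 atorvastatin mice exceeded the median vehicle mouse. It ran from 0.0098 without vehicle replicate 4 to 0.15 without vehicle replicate 6.

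**Figure D2:**
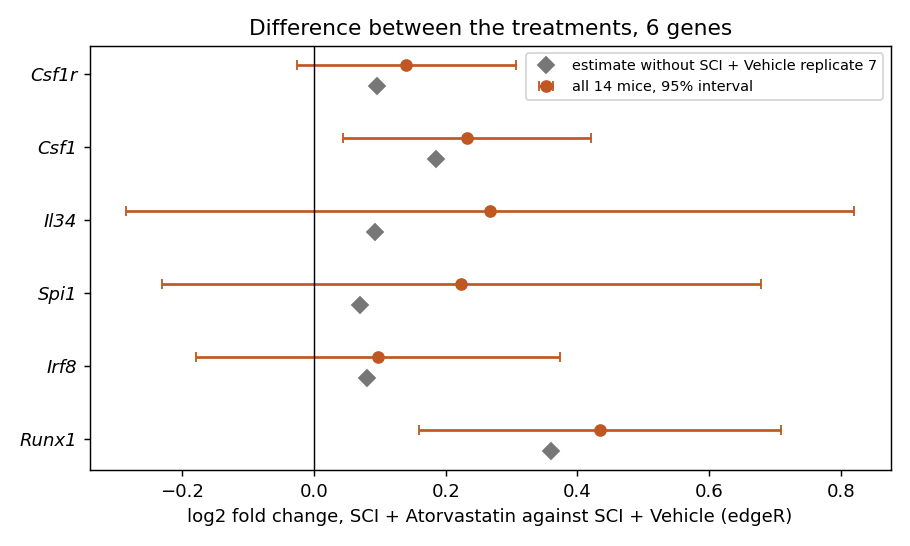
Log2 fold change of each of the 6 genes in SCI + Atorvastatin against SCI + Vehicle (edgeR, n = 7 and 7). Circles with bars are the estimates with 95% intervals, and diamonds the estimates without SCI + Vehicle replicate 7. The intervals of Runx1 and Csf1 lie above 0 and the other 4 include it, and without that mouse Il34 moves from 0.27 to 0.09 and Spi1 from 0.22 to 0.07.

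Markers of other cells were measured beside these values. All 6 fibroblast markers were higher with atorvastatin at an unadjusted p below 0.05 in edgeR, with 0 called and a median log2 fold change of 0.94, and their summed TPM ran from 461.07 to 1157.98 with atorvastatin and from 76.72 to 713.59 with vehicle. Of 16 microglia or macrophage markers, 15 had a log2 fold change above 0, with a median of 0.15 and 0 called. Monocyte or border macrophage markers were above 0 in 9 of 10 (median 0.38), endothelium markers in 6 of 6 (median 0.29) and neuron markers in 0 of 12 (median -0.16), with 0 called and 1, 1 and 2 at an unadjusted p below 0.05. Neutrophil markers were above 0 in 3 of 7 (median -0.003), lymphocyte markers in 1 of 4 (-0.33) and liver markers in 3 of 6 (-0.36). Astrocyte markers were above 0 in 6 of 8 (0.02), oligodendrocyte markers in 4 of 8 (-0.03) and red blood cell markers in 0 of 5 (0). None of these was called. Over all genes 48.7% were above 0, 7.03% had an unadjusted p below 0.05 and 0.106% were called. The part of all these cells in the values of the 6 genes was not tested.

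Csf1r was then set against the cells that carry it. The 16 microglia or macrophage markers summed to 355.92 and 580.5 TPM in the Uninjured Control mice, to between 4084.2 and 5762.26 with vehicle and to between 4981.65 and 7008.76 with atorvastatin. Of these markers 11 rose with vehicle and 12 with atorvastatin, none was called lower, and 6 had 0 counts in 1 of the controls (Ptprc and Cd68 in replicate 1, and P2ry12, Tmem119, Gpr34 and Siglech in replicate 2). Csf1r TPM was 6.50% and 5.03% of the marker sum in the controls and 3.23% to 4.14% in the SCI mice, with no overlap. The log2 difference, SCI minus Uninjured Control, was -0.66 (exact permutation p = 0.00833, the smallest of 120 assignments, n = 14 and 2). This relation depended on the markers. Against Aif1, Itgam and Ptprc alone the log2 difference was 1.14, in the other direction. In counts in place of TPM, with the 16 markers, it was -0.51 and not the most extreme of the 120 assignments (exact permutation p = 0.0417). Monocyte or border macrophage markers, of which 4 and 6 of 10 were called higher in the SCI + Vehicle and SCI + Atorvastatin comparisons, summed to 7.89 and 66.79 TPM in the controls, to 29.68 to 164.98 with vehicle and to 72.42 to 120.71 with atorvastatin. Of 7 neutrophil markers tested, 2 and 3 were called higher in these comparisons, of 4 lymphocyte markers 1 and 4, of 6 fibroblast markers 0 and 5, of 6 endothelium markers 0 and 1, of 8 astrocyte markers 5 and 5, of 8 oligodendrocyte markers 1 and 1, and of 5 red blood cell markers 1 and 1. In each group, 4 of the 5 red blood cell markers had 0 counts in every mouse, although all 5 passed the filter on TPM. The summed TPM of the 5 ran from 60.26 to 3672.07 with vehicle, so counts and TPM disagree for these genes too. Markers called lower were 8 and 10 of 12 neuron markers, 1 and 3 oligodendrocyte markers, 0 and 1 astrocyte markers, and 6 and 6 of 6 liver markers. Over all genes, 19.8% and 24.9% were called higher in these comparisons, and 29.4% and 38.9% in either direction. The part of these cells in the levels of the 6 genes was not tested.

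**Figure D3:**
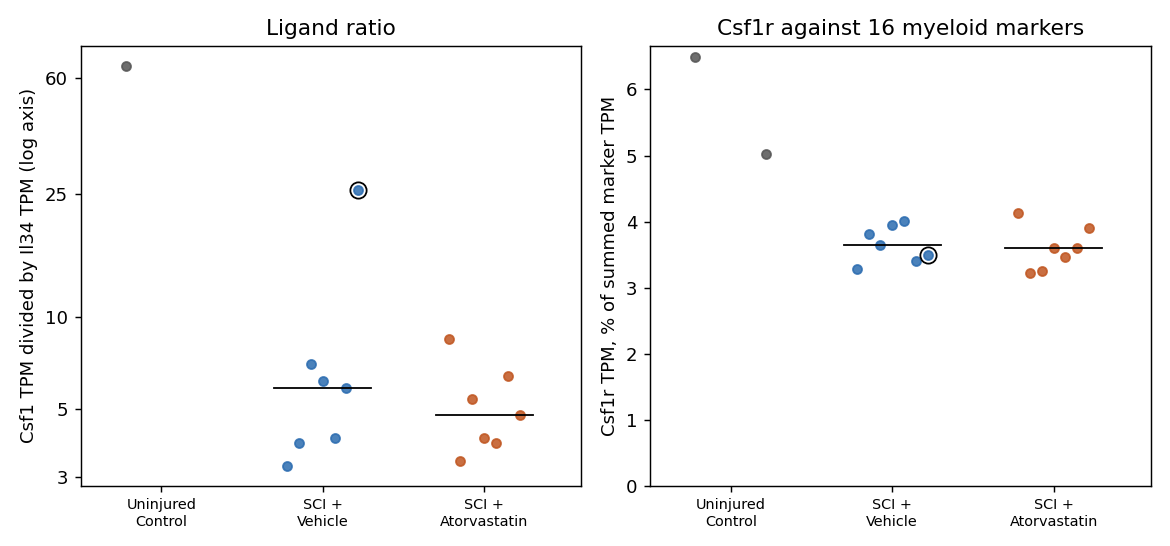
Left, Csf1 TPM divided by Il34 TPM in each mouse (log axis); Uninjured Control replicate 2 has no value because Il34 is listed at 0. Right, Csf1r TPM as a percentage of the summed TPM of 16 microglia or macrophage markers. Points are mice, lines are medians of the SCI groups, and the ringed point is SCI + Vehicle replicate 7, whose ligand ratio of 25.9 lies between the other SCI mice (3.26 to 8.46) and the control (65.6).

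Downstream and upstream partners of the receptor were taken from a list of 28 genes of Csf1r signalling and shedding, all of which were tested. In SCI + Vehicle vs. Uninjured Control 13 were called higher, 1 lower and 14 were not called, with a median log2 fold change of 0.71 against 0.17 over all genes. With atorvastatin against the same controls 14 were called higher and 1 lower (median 0.88 against 0.21). Over all genes, 19.8% and 24.9% were called higher in these comparisons. Lyn, a Src family kinase, rose by a log2 fold change of 2.92 ± 0.22 in SCI + Vehicle (edgeR adjusted p = 2.63e-05). Fgr, another Src family kinase, had 0 counts in both controls and 138 to 258 in the SCI mice. Tyrobp, the adaptor that couples several myeloid receptors to Syk, rose by 3.59 ± 0.57 (adjusted p = 0.00123), and Adam17, the protease that sheds the Csf1r ectodomain, by 2.11 ± 0.25 (adjusted p = 0.000255). Sos1, the exchange factor for Ras, fell by 0.58 on the log2 scale (adjusted p = 0.0175). The 2 most abundant members that were not called were the general kinases Mapk3 (log2 fold change -0.05, adjusted p = 0.838) and Akt1 (0.07, adjusted p = 0.801).

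Other myeloid transcription regulators were listed as 36 genes. Of these, 33 were tested, and 11 were called higher and 0 lower in SCI + Vehicle, and 15 higher and 1 lower in SCI + Atorvastatin vs. Uninjured Control. The share of all genes called higher was 19.8% and 24.9%. Median log2 fold changes of the 33 were 0.49 and 0.79, against 0.17 and 0.21 over all genes. Runx2, a relative of Runx1, had 0 counts in both controls and 93 to 330 in the SCI mice, and Myb, a regulator of blood progenitors, 0 and 37 to 228. Nfkb1, a subunit of NF-kB, rose by a log2 fold change of 1.32 ± 0.21 in SCI + Vehicle (edgeR adjusted p = 0.00118), and Mef2c, a factor active in microglia and neurons, by 1.18 ± 0.21 (adjusted p = 0.00225). Zeb2 and Jun, the most abundant regulators not called there, had log2 fold changes of 0.42 (adjusted p = 0.0676) and 0.49 (adjusted p = 0.0651), and both passed in SCI + Atorvastatin vs. Uninjured Control (0.55 and 0.59, adjusted p = 0.0139 and 0.0267). A difference between those comparisons was not shown, since the treatments differed by 0.11 and 0.08 (edgeR adjusted p = 0.765 and 0.889).

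Among 17 other haematopoietic growth factors and receptors 13 were tested, and 6 were called higher and 1 lower in SCI + Vehicle, and 7 and 1 in SCI + Atorvastatin vs. Uninjured Control. The share of all genes called higher was 19.8% and 24.9%. Median log2 fold changes of the 13 were 2.05 and 2.32, against 0.17 and 0.21 over all genes. The ligands Csf2, Csf3, Il3 and Il7 did not pass the filter on low values. Il3ra, the receptor chain for interleukin 3, had 0 counts in both controls and 33 to 205 in the SCI mice. Tgfbr2, a receptor for TGF-beta, on which microglial identity depends, rose by a log2 fold change of 2.19 ± 0.44 in SCI + Vehicle (edgeR adjusted p = 0.00401). Its partner Tgfbr1 also passed in SCI + Vehicle (adjusted p = 0.0166). In the separate comparison of SCI + Atorvastatin vs. Uninjured Control its log2 fold change was 1.57 ± 0.32. Csf3r, the receptor for granulocyte colony stimulating factor, rose by 3.92 ± 1.04 in SCI + Vehicle (adjusted p = 0.0170). Kit, a receptor tyrosine kinase related to Csf1r, fell by 0.84 on the log2 scale (adjusted p = 0.0180). Csf2ra (0.47, adjusted p = 0.481) and Tgfb1 (2.05 ± 1.13, adjusted p = 0.202) were not called, Tgfb1 having 0 counts in 1 control and 289 in the other. With a quality weight per group in voom, 0 genes of these 3 lists were called against Uninjured Control in either SCI group. That analysis called 0.820% of all genes in SCI + Vehicle and 0.901% in SCI + Atorvastatin. No gene of the 3 lists was called between the treatments in edgeR, as against 0.106% of all genes. There 4, 1 and 2 genes had an unadjusted p below 0.05, as did 7.03% of all genes. The smallest p was that of Tgfbr2 (log2 fold change 0.24, edgeR adjusted p = 0.680).

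**Figure D4:**
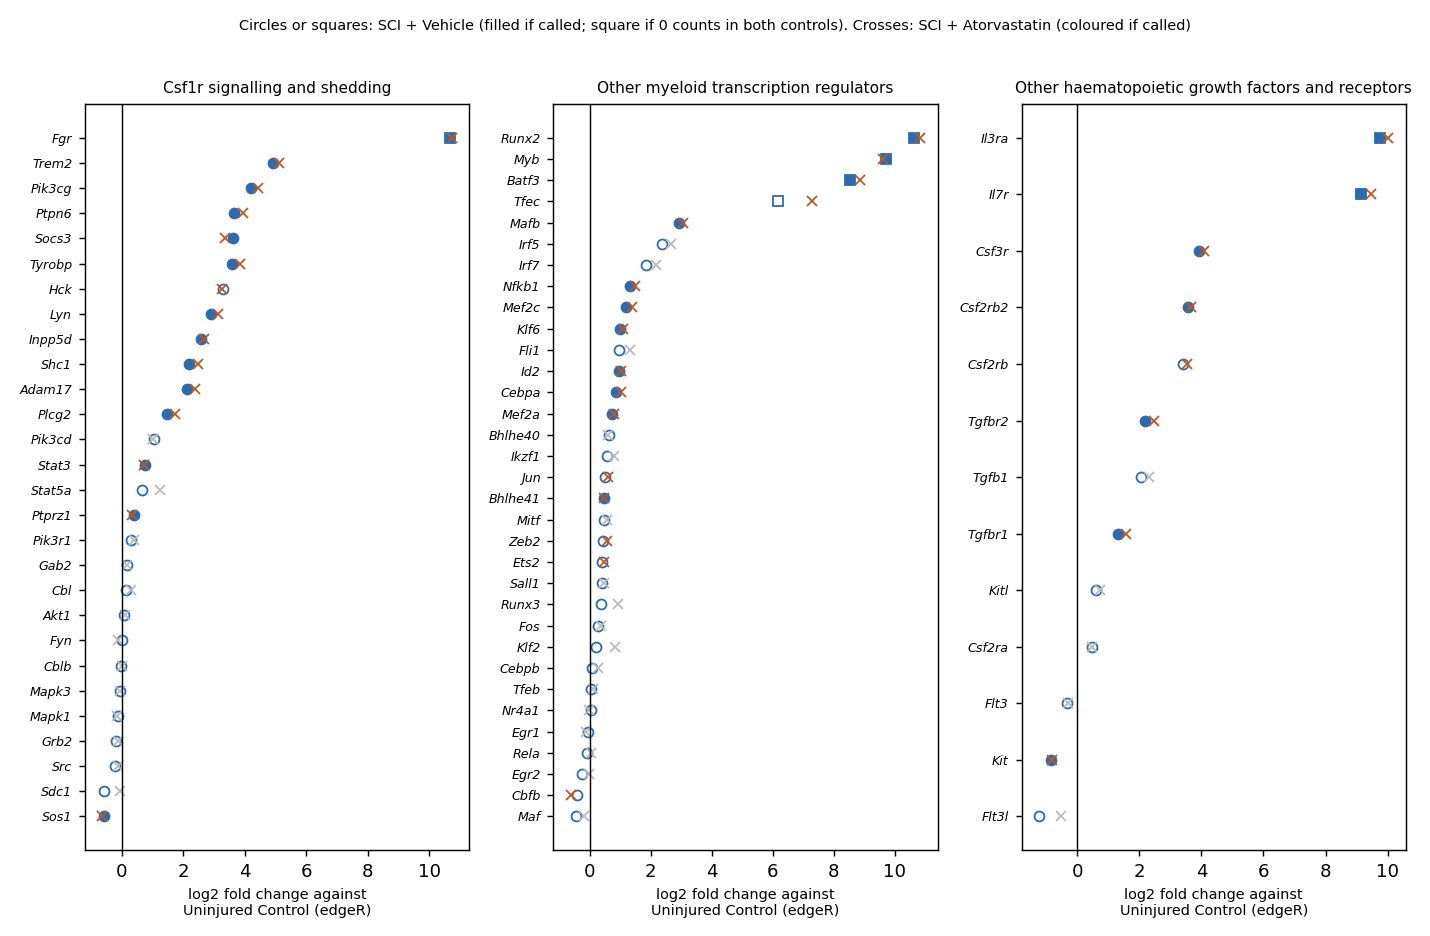
Log2 fold change against Uninjured Control (edgeR) of the tested genes of 3 lists: 28 genes of Csf1r signalling and shedding, 33 other myeloid transcription regulators and 13 other haematopoietic growth factors and receptors. Circles and squares are SCI + Vehicle (filled if called, squares if both controls have 0 counts, where the value depends on the prior count), and crosses SCI + Atorvastatin (coloured if called). Filled symbols lie to the right of 0 for 13, 11 and 6 genes and to the left for 1, 0 and 1.

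Covariation among the 6 genes was examined in the 14 SCI mice, on log2 CPM centred within each treatment. Of 15 pairs, 0 passed a Benjamini-Hochberg adjusted permutation p of 0.05. Csf1r and Spi1 had a Pearson r of 0.71 (permutation p = 0.00910, adjusted p = 0.112) and a Spearman rho of 0.54 (permutation p = 0.0491, adjusted p = 0.337). Without the 2 mice farthest from the median of Csf1r the r of this pair was 0.46. Within the atorvastatin group it was 0.86 (exact permutation p = 0.0133, n = 7) and within the vehicle group 0.76 (exact permutation p = 0.0651, n = 7), or 0.11 without vehicle replicate 7.

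Csf1r and Runx1 had a Pearson r of 0.69 (permutation p = 0.0150, adjusted p = 0.112) and a Spearman rho of 0.52 (permutation p = 0.0675, adjusted p = 0.337). On log2(TPM + 1) the r of this pair was 0.82 (permutation p = 0.000600, adjusted p = 0.00900), past the threshold. On log2 CPM the r was 0.29 without the 2 mice farthest on Csf1r, 0.39 within the atorvastatin group (exact permutation p = 0.390) and 0.85 within the vehicle group (exact permutation p = 0.0230). Il34 and Spi1 had the largest r, 0.82, with a permutation p of 0.0589 (adjusted p = 0.177) and a Spearman rho of 0.39 (permutation p = 0.184, adjusted p = 0.411). This relation rested on 1 mouse, since r was 0.05 without vehicle replicate 7 and -0.01 without the 2 mice farthest on Il34. Csf1r and Irf8 behaved otherwise, with an r of 0.51 (permutation p = 0.109, adjusted p = 0.182), a rho of 0.66 (permutation p = 0.0127, adjusted p = 0.191), 0.58 without the 2 farthest mice and 0.60 without vehicle replicate 7. Within the atorvastatin group the r of this pair was 0.88 (exact permutation p = 0.0103) and within the vehicle group 0.47 (exact permutation p = 0.300).

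**Figure D5:**
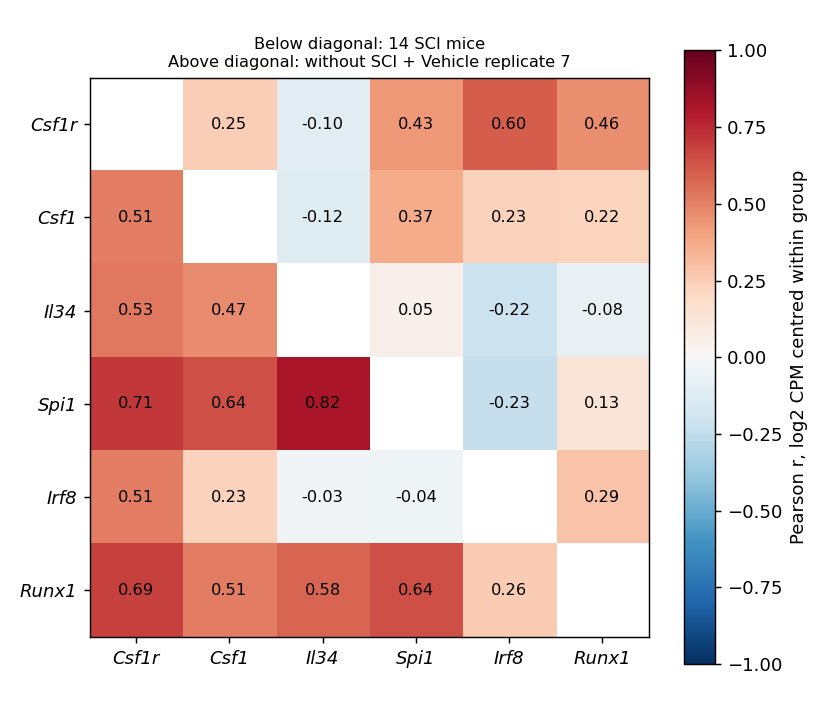
Pearson r between the 6 genes over SCI mice, on log2 CPM centred within treatment. Below the diagonal are all 14 mice and above it 13, without SCI + Vehicle replicate 7. Il34 and Spi1 go from 0.82 to 0.05, and Csf1r and Irf8 from 0.51 to 0.60.

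The genes most alike to each of the 6 were found among 11026 genes with at least 100 counts in every SCI mouse, by Pearson r over the same 14 mice and as a description only. For Csf1r these were Itgb2 (r = 0.91), Itgam (0.91), Il16 (0.88), Cyth3 (0.87) and Necap2 (0.86), of which Itgam and Itgb2 encode the chains of complement receptor 3 on myeloid cells. Without vehicle replicate 7 these r were 0.79 to 0.85, and the median r with Csf1r over all genes compared was -0.04. For Runx1 they were Cd300lf, Dock2, Fmnl2, Ppp6r3 and Dpp7 (0.85 to 0.86), and for Csf1 Pprc1 (0.87), C4b, Zbtb2, Cln3 and Helz2. Irf8 was most alike to Jkamp (0.86), H2-Q4, Ddx21, Slc39a11 and Cdc42se1. For Il34 they were Ankrd44 (0.96), Stab1, Col18a1, Xdh and Msrb3, and for Spi1 Gsap (0.95), Abcc3, Vwf, Cdon and Nnt. Several of these rested on vehicle replicate 7: without it the r of Xdh and Msrb3 with Il34 were 0.59 and 0.58, and that of Abcc3 with Spi1 was 0.55, while Gsap kept 0.87. All these values come from the same 14 libraries, and so share their depth.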

How the data were processed

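RNA of 16 mouse spinal cords was made into libraries with a stranded total RNA kit. Per the submitters' processing notes, reads were checked with FastQC 0.12.1, trimmed with Trimmomatic 0.38, aligned to mm10 with STAR 2.5.4b and quantified with RSEM 1.3.1. The authors deposited a table of whole-number counts and TPM normalized for length. The step that gave whole numbers is not stated in the sources used here. Counts and TPM disagree for some genes, such as Irf8 with 227 counts and 0 TPM in Uninjured Control replicate 2. Whether both come from the same quantification was not tested.

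The labels gave the groups. The filter kept 16091 genes whose TPM averaged over 1 in any group, and their deposited counts were tested pairwise by quasi-likelihood in edgeR 4.0.16 after TMM scaling, with p-values adjusted by Benjamini-Hochberg over all of them. SE is the fold change divided by the root of F. Ratios were tested by exact two-sided permutation over mice, and correlations with 100000 permutations. The exact tests of each gene between the treatments, on log2 CPM, were added after the edgeR values were seen. Counting floors are 3 counts, or 0.117 to 0.202 CPM, and cover counting error only. Replicates are separate mice. Alternatives used DESeq2 1.42.0 and limma 3.58.1 (voom and log2(TPM + 1)), other filters and scalings, a replicate block, and each mouse left out. In simulated data with 200 changed genes among 16091, edgeR recovered 45% of 2-fold and 85% of 4-fold changes with 7 mice against 2 (5.11% false calls), and 79% and 96% with 7 against 7 (3.32%). The simulated levels and spread of both groups came from the SCI mice, and calls were at an adjusted p below 0.05 alone. The 0 counts and spread of the real controls were not simulated, so the rate of false calls against Uninjured Control is not given by it. The 6 genes, the lists and the tests were chosen with earlier results of these data known. Besides the 6 genes, the text names for each of 3 lists the 4 called genes of smallest p in each direction and the 2 most abundant uncalled genes in SCI + Vehicle vs. Uninjured Control, any list gene called between treatments, the 5 genes most alike to each of the 6, and markers at 0. Tgfbr2 between the treatments was named after its values were seen. Gene positions are from GENCODE (GRCm38) and promoters from RefSeq (GRCm38.p6); 1 other motif that was searched is not reported here. Figures were drawn with matplotlib 3.10.9.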

Additional observations from a re-analysis of the deposited data

Results flagged for a closer look

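The Csf1 to Il34 TPM ratio of SCI + Vehicle replicate 7 was far from the other mice of its group. It was 25.9, and the nearest mouse had 7.02, a gap of 0.833 of the range of the group, above the 95% limit of 0.568 in Dixon's test for 7 samples. Chance exceeds this limit in about 1 in 20 groups, and 28 groups were tested. Csf1 was within the range of its group at 53.0 TPM, and Il34 was the lowest of the SCI mice at 2.05 TPM. In the same library Spi1 was the lowest at 11.8 TPM, and the summed fibroblast and endothelium markers were the lowest of its group (76.72 and 75.53 TPM, against medians of 421.8 and 135.9 in the other 6 mice). Neuron and oligodendrocyte markers were the highest of the group (12243.1 and 19388.4 TPM). Irf8, at 41.9 TPM, was within the range of its group. The part of these features in the ratio was not tested.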

How the results depend on the processing

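With 2 control libraries, the comparisons with Uninjured Control depended on how the spread was estimated, and counts below about 3 per library set the floor for Il34, Spi1 and Irf8 there. In edgeR all 6 genes passed against Uninjured Control with vehicle and with atorvastatin. The number was 2 and 2 when a mean TPM above 1 was required in every condition and 3 and 3 with at least 10 counts in every library (added after seeing the data), where 2 and 3 of the 6 genes were left to test. It was 1 and 1, Csf1r in both, with a quality weight per group in voom; the cause was not tested. Leaving out each mouse in turn gave 3 to 6 genes for SCI + Vehicle, with 3 without vehicle replicate 2, 3, 4 or 6, and 6 to 6 for SCI + Atorvastatin. Where 1 control is left, it is assumed to vary like the other group. Between the treatments the number ran from 0 to 1, the 1 being Runx1 without vehicle replicate 2.

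The Csf1 to Il34 log2 ratio of SCI against Uninjured Control ran from -6.25 to -3.37 when each mouse was left out, and the exact permutation p was 0.0667 without either control, the smallest possible there. Between the treatments the ratio ran from -0.45 to 0.036, the sign turning without vehicle replicate 7. Csf1r per marker level ran from -0.84 to -0.47, and was 1.14 with Aif1, Itgam and Ptprc as markers. With counts in place of TPM it was -0.51 (exact permutation p = 0.0417). The number of correlated pairs was 0, but 1 on log2(TPM + 1) (Csf1r and Runx1) and 0 to 1 when each mouse was left out, with 1 (Csf1r and Spi1) without vehicle replicate 4.

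The replicate numbers do not come from shared animals, and the pairing was not borne out: same-numbered SCI mice had correlations of -0.286 to 0.223 over 9218 genes, and 1 of 7 numbers had its own partner as the highest. Against Uninjured Control, the replicate block kept only replicate numbers 1 and 2, which both groups hold, and left out the other SCI mice. There the number of genes called was 1 in SCI + Vehicle vs. Uninjured Control (Csf1r, adjusted p = 0.00965 in edgeR) and 1 in SCI + Atorvastatin vs. Uninjured Control, of 83 and 42 genes called in all. These counts thus do not show the effect of a block on all mice. With all 7 numbers, the Csf1 to Il34 log2 ratio differed between the treatments by -0.30 (exact permutation p = 0.547). Over the single values of the 6 genes, 314 alternatives kept direction and side of the threshold, 39 lost the call, 1 gained it and 0 reversed. The 314 include the comparison between the treatments, where no gene was called and the same side means still not called. All 39 losses are in the comparisons with Uninjured Control. Settings whose filter removed a gene are not counted for it.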
